A study of Mus musculus with 12 samples.

Results

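Solute carriers are membrane proteins that move amino acids, sugars, nucleosides, ions, metals, vitamins and many other small molecules across the plasma membrane and the membranes of organelles. The genes described here are those whose symbol has the form Slc, a family number and a letter, without the glucose carriers Slc2a1 and Slc2a3, and whose probe set was brighter than the median probe set of the same array on 2 or more of the 12 arrays. Of 295 such genes with a probe set naming 1 gene, 153 (51.9%) met this rule and 142 did not. The rule used brightness only and no comparison between groups. Of the 153, 121 lay above the median on all 12 arrays and 32 on 2 to 11 arrays.

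Gene expression was measured in 12 samples of mouse T cells, 2 in each of 6 groups, on Affymetrix ST1.0 arrays, which read each transcript with a set of short probes. Regulatory T cells (Tregs), which restrain immune responses, were sorted from spleen as live CD4+ cells with high CD25, double sorted, from mice that were wild type (WT) or homozygous for the M354 or the M176 allele of Foxp3, labelled Foxp3(M354/M354) and Foxp3(M176/M176). Tregs depend on the transcription factor Foxp3 for their identity. For the other groups, conventional T cells of WT mice received WT, M354 or M176 Foxp3 by retrovirus, and cells with high Thy1.1 were sorted. These cells also have their own WT Foxp3 gene, and cells given a virus lacking Foxp3 are not among the samples. All samples are labelled as coming from spleen of male C57Bl/6 mice aged 6 weeks. No source used here gives the protein changes behind M354 and M176. Separate animals or cultures are not named for the samples within a group, so the p-values rest on a spread between samples that may be only technical.

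T cells that divide need carriers for amino acids, glucose, nucleosides and metals, and a resting cell needs less of each. Members of family 25 sit mostly in the inner mitochondrial membrane and exchange nucleotides, amino acids and cofactors with the cytosol. Family 35 carries nucleotide sugars into the Golgi apparatus and the endoplasmic reticulum, families 30 and 39 carry zinc out of and into the cytosol, and families 1, 7, 36 and 38 carry amino acids. Sorted by family number, the genes comprised 32 of family 25, called mitochondrial carriers below although Slc25a17 works in peroxisomes, 22 carriers of nucleosides and nucleotide sugars, 20 of amino acids, 20 of inorganic ions and pH, 20 of metals, 12 of sugars, 8 of organic ions, 6 of vitamins, choline and cofactors, 3 of peptides, 3 of lipids and bile acids and 2 of mono-, di- and tricarboxylates, with 5 in other families. A family number does not fix the substrate of every member, and Slc4a1ap and Slc7a6os take their names from a carrier without being carriers themselves.

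The brightness threshold fell within a continuous range of levels. Just inside it, Slc6a8, a creatine carrier, lay between 76.2 and 122.9 over the 12 arrays, Slc25a18, a mitochondrial glutamate carrier, between 73.2 and 116.5, and Slc2a8 between 76.5 and 115.8. Just outside, Slc25a43 lay between 70.6 and 114.1, Slc34a3 between 71.2 and 117.7 and Slc24a1 between 75.5 and 109.3. These are intensities on a linear scale, as are all levels given here unless log2 is stated. Apart from brightness rules that chose genes, sums over marker lists and array medians, a level is compared only within a gene. Genes near the threshold were therefore close to the middle of the arrays' range in all groups.

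Some samples stood apart in other genes. Foxp3 was lower in M176 than in WT Tregs by a log2 change of -0.73 (SE 0.13, adjusted p = 0.000552, limma), and the other mutant against WT comparisons gave adjusted p from 0.838 to 1.0. In WT Tregs, replicate 2 held B cell transcripts: Cd79a, a part of the B cell receptor, was at 398.6 against 93.8 in replicate 1, and the summed level of 10 B cell markers was 4271.7 against 2040.6. The transduced samples had 3798.6 to 4203.6 on that sum, the M354 Tregs 2111.3 to 2177.9 and the M176 Tregs 1816.3 to 1921.6. All 7 myeloid and all 3 erythroid markers measured lay below the array median in every group, as did 4 or 5 of 6 dendritic cell markers. The summed level of 8 CD8+ T and NK cell markers was 4356.7 to 6005.1 in transduced samples and 1625.8 to 3264.8 in Tregs. All 6 T cell markers and all 6 Treg markers measured were above the median in every Treg group, while Itgb8 lay below it in transduced cells. The summed level of the Treg markers, Foxp3 among them, was 17016.0 to 17757.6 in M176 Tregs, 21867.5 to 22351.9 in M354 Tregs and 24418.9 to 25539.2 in WT Tregs. The mean log2 level of 36 small nucleolar RNA (snoRNA) genes was 9.98 and 10.04 in M176 Tregs, against 8.66 to 8.87 in the other Tregs and 8.61 to 9.64 in transduced cells. The summed level of 12 proliferation genes was 2518.1 to 2740.0 in M176 Tregs, 4556.1 to 5892.7 in WT Tregs, 6946.3 to 8854.0 in M354 Tregs and 12093.8 to 19436.3 in transduced cells. The part that these other transcripts have in the results on carriers was not tested, beyond the fits with the snoRNA level and without single arrays given below.

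**Figure D1:**
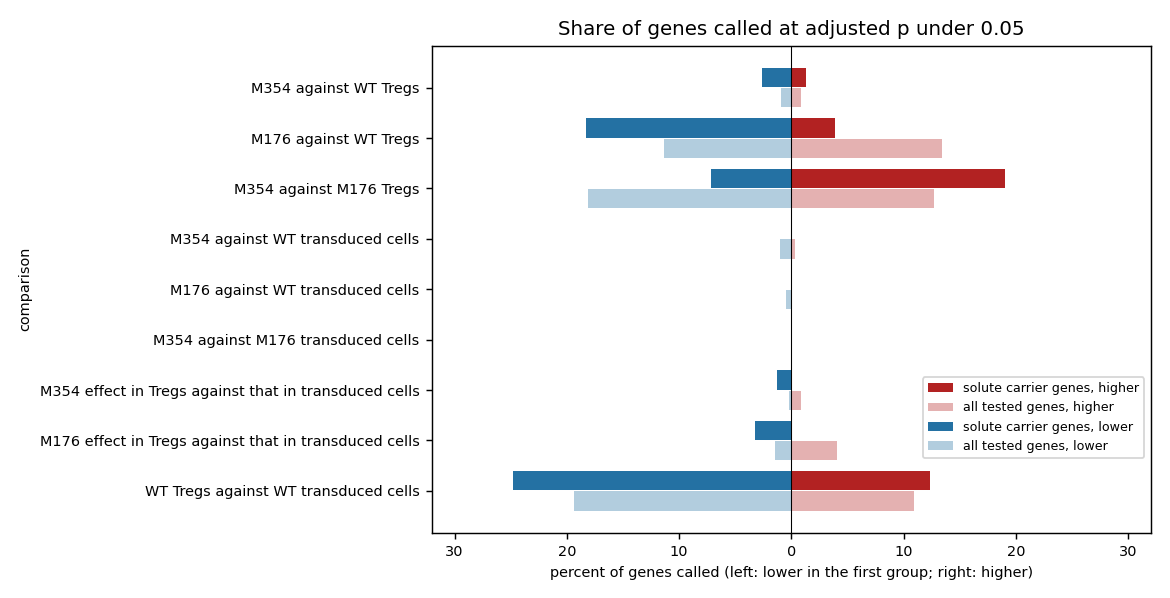
Percent of genes called at an adjusted p under 0.05 in each of 9 comparisons, for 153 solute carrier genes (dark bars) and all 8918 tested genes (pale bars), with genes lower in the first-named group to the left of 0 and genes higher to the right. In M176 against WT Tregs 18.3% of the carriers were lower and 3.92% higher, against 11.3% and 13.4% of all genes. No carrier was called among transduced cells in this fit, which has no block for the sample numbers.

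The first comparison asked which carriers differ between Tregs with M354 and with WT Foxp3. A carrier was called at an adjusted p under 0.05 in a limma fit over all 8918 tested genes. In M354 Tregs, 2 carriers rose and 4 fell, 3.92% of the 153, where 1.81% of all tested genes were called, 0.886% higher and 0.919% lower. Among the 121 genes above the median on every array the counts were 2 and 3 (4.13%, against 1.53% of all genes that passed on every array). Among the other 32 they were 0 and 1. The median log2 change was -0.03 over the carriers and -0.05 over all tested genes. Slc43a3 and Slc35g1 rose, and Slc15a2, Slc35d1, Slc28a2b and Slc49a4 fell. In bulk samples, fewer cells of a type and less RNA per cell cannot be told apart.

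Slc35d1 carries UDP-glucuronic acid and UDP-N-acetylgalactosamine into the endoplasmic reticulum, where they serve the synthesis of glycans such as chondroitin sulfate. Its intensity was 632 and 733 in WT Tregs, 258 and 253 in M354 Tregs and 277 and 291 in M176 Tregs. WT-transduced cells had 252 and 179, M354-transduced cells 145 and 208, and M176-transduced cells 196 and 188. Both WT Treg samples stood above all other 10 samples, and the mutant Tregs lay close to the transduced cells. The log2 change in M354 Tregs was -1.41 (SE 0.18, adjusted p = 0.000184, limma).

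Slc28a2b encodes a concentrative nucleoside carrier and lies beside its near copy Slc28a2, a sodium-driven carrier of purine nucleosides and uridine. Its intensity was 656 and 665 in WT Tregs, 261 and 326 in M354 Tregs and 377 and 309 in M176 Tregs. It was 1630 and 1588 in WT-transduced cells, 1681 and 1583 with M354 and 1937 and 1877 with M176. Mutant Tregs, WT Tregs and transduced cells did not overlap, with mutant Tregs lowest, WT Tregs between and transduced cells highest. The change in M354 Tregs was -1.18 on the log2 scale (SE 0.14, adjusted p = 0.000101, limma).

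The probe set of Slc28a2 itself gave 712 and 763 in WT Tregs, 451 and 585 in M354 Tregs and 578 and 719 in M176 Tregs, and 882 to 1153 over the 6 transduced samples. It had its low and high groups in the same order as Slc28a2b, with smaller differences, and its log2 change in M354 Tregs, -0.52 (SE 0.16), did not pass (adjusted p = 0.117, limma). Probes of neighbouring copies can share signal, so that the values of this pair are uncertain as values of 1 gene. The 250-base promoter windows of both genes had 127 identical bases in 210 aligned, 60.5%, with gaps left out. The Slc28a2 window does not end at the annotated edge of its gene, and no unrelated pair was aligned for comparison. The window before Slc28a2b is shown because this gene was called in 5 of the 9 comparisons, as was Slc35d1. It is the 250 bases before the start in RefSeq's annotation of GRCm38.p6, chr2:122484691-122484940, plus strand, with the single match to the metal response core TGCNCNC in capitals.

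Slc28a2b promoter: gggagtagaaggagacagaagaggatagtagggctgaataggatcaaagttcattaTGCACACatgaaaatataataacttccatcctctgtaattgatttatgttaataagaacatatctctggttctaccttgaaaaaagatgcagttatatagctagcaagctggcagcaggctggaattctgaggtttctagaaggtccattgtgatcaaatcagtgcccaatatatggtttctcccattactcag

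In these windows 5 motifs were searched on both strands: the forkhead motif TGTTTAC, the AP-1 motif TGANTCA, the E-box CACGTG, the amino acid response motif TGATGNAA and the metal response core. A match describes letters and is not a binding site. A window was available for 118 of the 153 carriers. The forkhead motif, the kind of site that Foxp3 and its relatives recognise, was found in 0 of 118, against 3.06% of 27025 windows of all genes, and the AP-1 motif in 9 (7.63%) against 6.85%. The E-box was found in 14 (11.9%) against 6.04%, the amino acid response motif in 3 (2.54%) against 3.53%, and the metal response core in 60 (50.8%) against 43.8%.

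Slc15a2 carries small peptides together with protons. It read 509 and 312 in WT Tregs, 188 and 39.9 in M354 Tregs and 224 and 234 in M176 Tregs, and 158 to 243 in transduced cells. The M354 samples lay below both WT Treg samples but differed widely from each other, and replicate 2 was the lowest of all 12. That sample lay far below its array median of 111.58, and the size of the difference rests largely on it. Its log2 change in M354 Tregs was -2.20 (SE 0.43, adjusted p = 0.00955, limma). It was -1.08 (adjusted p = 0.0362) without M354 replicate 2 and -3.32 without M354 replicate 1, and without WT replicate 1 the call was lost (adjusted p = 0.0876).

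Slc43a3, in a family numbered with amino acid carriers but itself a carrier of purine nucleobases, went in opposite directions with the alleles. Its intensity was 464 and 483 in WT Tregs, 857 and 838 in M354 Tregs and 326 and 299 in M176 Tregs. WT-transduced cells had 769 and 667, M354-transduced cells 772 and 1001 and M176-transduced cells 753 and 649. Among Tregs the 3 groups did not overlap, and among transduced cells M176 overlapped WT. The log2 change in M354 Tregs was 0.84 (SE 0.14, adjusted p = 0.00375, limma).

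The remaining calls were smaller. Slc49a4, of the lysosomal membrane, read 465 and 420 in WT, 308 and 285 in M354 and 380 and 390 in M176 Tregs, so that M354 was lowest without overlap, and fell by 0.58 on the log2 scale (adjusted p = 0.0283, limma). Slc35g1 read 940 and 946 in WT, 1294 and 1350 in M354 and 864 and 866 in M176 Tregs, with M354 highest, and rose by a log2 change of 0.49 (adjusted p = 0.0498). Slc49a4 lost its call without any single M354 or WT Treg sample (adjusted p 0.0668 to 0.199) with quantile or cyclic loess normalization and with only the groups compared. Slc35g1 lost its call without any single sample other than the WT-transduced ones (0.06 to 0.213), with no filter, with an intensity trend, with only the groups compared and with the replicate block (5 carriers called). Slc35d1, Slc28a2b and Slc43a3 kept their calls whichever sample was left out. Without the WT Treg sample that held B cell transcripts, 4 carriers were called, 1 higher and 3 lower.

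**Figure D2:**
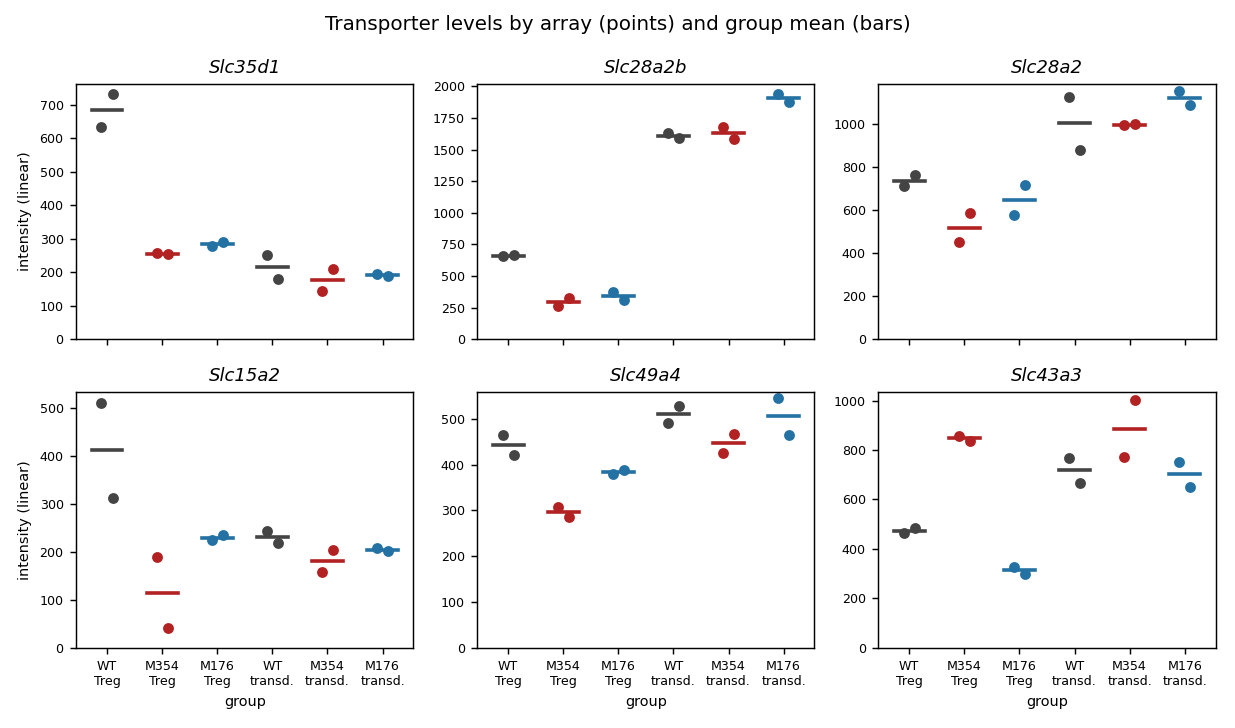
Intensity (linear scale, axis from 0) of 6 carriers by group, with 1 point per array and bars at the arithmetic mean of 2 arrays. Slc35d1 was at 632 and 733 in WT Tregs and at or below 291 in all other samples, and Slc43a3 lay above WT in M354 Tregs and below WT in M176 Tregs.

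The same question for M176 gave a larger set. In M176 Tregs 6 carriers rose and 28 fell, 22.2% of the 153, where 24.7% of all tested genes were called. The arrays of all 34 did not overlap between the groups, which is no separate support because the call reads the same arrays. Over all tested genes, called or not, 67.6% had arrays that did not overlap. The share called lower was 18.3% of the carriers and 11.3% of all genes, and the share called higher 3.92% and 13.4%. The median log2 change was -0.16 over the carriers and -0.04 over all tested genes. Among the 121 genes above the median on every array, 5 rose and 20 fell (20.7%, against 24.8% of all genes that passed on every array), and among the other 32 genes 1 rose and 8 fell. The snoRNA level, highest in the M176 Treg samples of all 12, moved with this comparison, so level and allele cannot be told apart here. Calls lost or kept with the level as a covariate do not separate them. With that level as a covariate 2 carriers were called, 1 in each direction, where 364 genes were called in all, and 19 of the 20 carriers described below for this comparison lost their call. The exception was Slc28a2b, at -0.99 (adjusted p = 0.0286). Slc35d1 was then at -0.66 (adjusted p = 0.136) and Slc5a3 at -0.40 (adjusted p = 0.488). For 1 of the 6 rises and 8 of the 28 falls both samples of the lower group lay below their array medians, among them Slc9b2, Slc25a18 and Slc31a1.

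Carriers of nucleosides and nucleotide sugars held the largest fall. Of 22 such genes 5 fell and 1 rose. Slc35d1, with the values given above, fell by 1.26 on the log2 scale (SE 0.18, adjusted p = 9.36e-05, limma), and Slc28a2b fell by 0.95 (SE 0.14, adjusted p = 0.000149). Slc35f2 read 203 and 212 in WT and 136 and 141 in M176 Tregs and fell by 0.58 (adjusted p = 0.00842). Slc35d2, a Golgi carrier of nucleotide sugars in the same subfamily as Slc35d1, went the other way: it read 270 and 320 in WT and 439 and 380 in M176 Tregs and rose by 0.47 (adjusted p = 0.0228).

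Of 20 carriers of inorganic ions and pH, 6 fell and 0 rose, and 19 had a change below 0. The share of all tested genes below 0 was not counted, and their median change was -0.04. Slc26a2, a sulfate carrier, read 668 and 775 in WT, 704 and 750 in M354 and 465 and 462 in M176 Tregs. The M176 samples were alone in being low among Tregs, and the log2 change was -0.64 (SE 0.14, adjusted p = 0.00299, limma). Slc9b2, a sodium-proton exchanger, read 167 and 136 in WT and 100 and 94.3 in M176 Tregs, without overlap, and fell by 0.63 (adjusted p = 0.0068). It was above the median on 4 arrays, those of WT and M354 Tregs. It thus entered the set through groups where it is high, and its fall carries no weight as a result. Slc20a1, a phosphate carrier, read 828 and 925 in WT, 973 and 1049 in M354 and 647 and 645 in M176 Tregs and fell by 0.44 (adjusted p = 0.0302). Slc9a7, an exchanger of the Golgi apparatus, read 411 and 478 in WT and 322 and 352 in M176 Tregs and fell by 0.40 (adjusted p = 0.0415).

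Among 12 sugar carriers 2 fell. Slc5a3 takes up myo-inositol, an osmolyte and a precursor of inositol lipids, and read 377 and 395 in WT, 327 and 436 in M354 and 169 and 213 in M176 Tregs. The M176 samples lay below the other Tregs and near the transduced cells, at 145 to 236. Its log2 change was -1.03 (SE 0.20, adjusted p = 0.00163, limma). Slc37a3 read 427 and 492 in WT and 264 and 372 in M176 Tregs and fell by 0.55 (adjusted p = 0.0279).

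Of 20 amino acid carriers by number 4 fell, with a class median of -0.27. Slc38a9, a lysosomal carrier that reports arginine to the mTORC1 kinase complex, read 786 and 797 in WT, 711 and 632 in M354 and 512 and 468 in M176 Tregs. The M176 samples were the lowest of all 12, and the log2 change was -0.69 (SE 0.13, adjusted p = 0.00135, limma). Slc43a3 fell by 0.60 (SE 0.14, adjusted p = 0.00633), opposite to its rise with M354. Slc3a2, the heavy chain that several amino acid carriers need to reach the surface, read 2033 and 2065 in WT and 1853 and 1732 in M176 Tregs and was not called.

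Of the 32 carriers of family 25, 4 rose and 3 fell, and 3 of the 4 that rose are carriers of mitochondria. Slc25a5, an exchanger of ADP and ATP, read 4180 and 3749 in WT, 3733 and 4702 in M354 and 6595 and 6011 in M176 Tregs. The M176 samples were the highest of all 12, and the log2 change was 0.67 (SE 0.14, adjusted p = 0.00279, limma). Its relative Slc25a4 read 488 and 460 in WT and 718 and 753 in M176 Tregs, and M354 spanned 498 to 732; it rose by 0.63 (adjusted p = 0.0296). Slc25a32, which brings folate or a flavin cofactor into mitochondria, read 208 and 256 in WT and 347 and 299 in M176 Tregs and rose by 0.48 (adjusted p = 0.0254). Slc25a17, the peroxisomal member, read 504 and 538 in WT and 719 and 662 in M176 Tregs and rose by 0.41 (adjusted p = 0.0494). Slc25a18 went down, from 115 and 108 to 75.8 and 74.2, a log2 change of -0.57 (adjusted p = 0.00482). It was above the median on 2 arrays, both of WT groups, so it entered the set through groups where it is high, and its fall carries no weight as a result.

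Of 20 metal carriers 1 rose and 2 fell. Slc31a1, which takes up copper, read 89.6 and 99.1 in WT and 127 and 126 in M176 Tregs and rose by 0.43 (adjusted p = 0.0436, limma). Of 6 carriers of vitamins, choline and cofactors 2 fell, among them Slc23a2, which takes up ascorbate, at 726 and 641 in WT and 408 and 507 in M176 Tregs, by a log2 change of -0.58 (adjusted p = 0.0081). Of 8 organic ion carriers 3 fell and all 8 had a change below 0, where the share of all tested genes below 0 was not counted. Slc22a13 and its close copy Slc22a13b are both among the 8. Slc17a5, which exports sialic acid from lysosomes, read 487 and 580 in WT and 410 and 312 in M176 Tregs and fell by 0.57 (adjusted p = 0.0152).

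Of the 6 rises and the 10 largest falls in M176 Tregs, 7 kept their call whichever sample was left out: Slc25a5, Slc35d1, Slc5a3, Slc28a2b, Slc38a9, Slc26a2 and Slc25a18. Slc25a18 is among these 7, although its fall carries no weight, as said above. With quantile normalization the call of Slc25a5 was lost. Slc25a4, Slc31a1 and Slc25a17 lost it without any single M176 or WT Treg sample, and Slc25a17 also without an M354- or M176-transduced one. Slc25a32, Slc35d2 and Slc23a2 lost it without M176 or WT replicate 1, Slc9b2 without M176 replicate 2 or WT replicate 1, Slc43a3 without M176 replicate 2 and Slc35f2 without M176 replicate 1 or WT replicate 2. The adjusted p were then 0.0511 to 0.261. Slc20a1 lost it without any single M176 or WT Treg sample, Slc9a7 without either M176 sample, WT replicate 2 or an M354-transduced one, Slc17a5 without M176 or WT replicate 2 and Slc37a3 without M176 replicate 1 or WT replicate 2 (0.0517 to 0.357). The count of carriers called was 11 without M176 replicate 1, 19 without M176 replicate 2, 14 without WT replicate 1 and 16 without WT replicate 2, the sample with B cell transcripts.

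**Figure D3:**
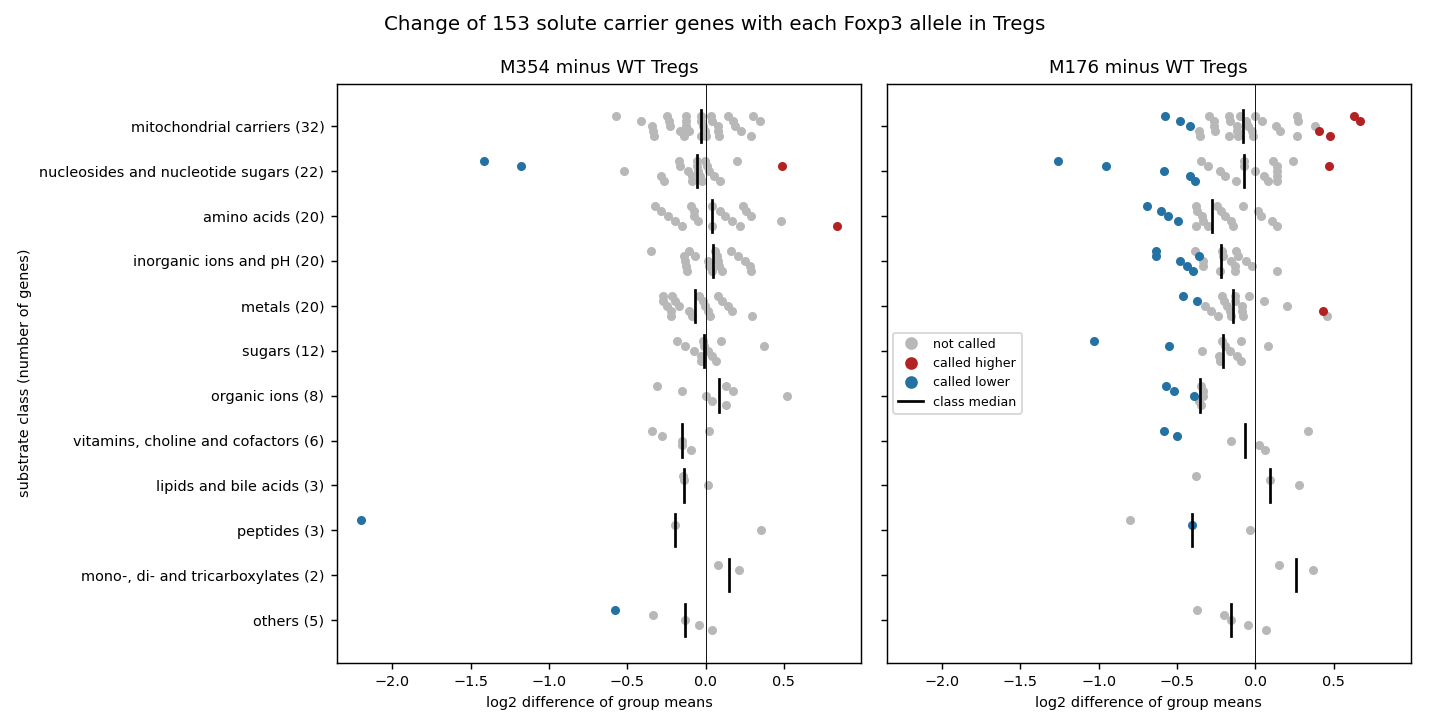
Log2 difference of group means for each of 153 carriers (points) by substrate class, in M354 minus WT Tregs (left) and M176 minus WT Tregs (right), on 1 scale. Red and blue points were called higher and lower at an adjusted p under 0.05, and black lines are class medians. All 8 organic ion carriers and 19 of 20 carriers of inorganic ions lay below 0 with M176, and the called rises with M176 were in 3 classes. The share of all tested genes below 0 with M176 was not counted, and their median change was -0.04.

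The alleles were also compared directly in Tregs. Of the 153 carriers 29 were higher in M354 and 11 lower, 26.1% in all, where 30.8% of all tested genes were called, 12.7% higher and 18.1% lower. An unadjusted p under 0.05 was found for 59 carriers and for 42.3% of all genes. The median log2 difference was 0.12 over the carriers and -0.02 over all tested genes. Among the 121 genes above the median on every array 20 were higher and 8 lower (23.1%, against 29.7% of all genes that passed on every array). Among the other 32 genes the counts were 9 and 3. For 8 of the 29 higher carriers both M176 samples lay below their array medians, Slc9b2, Slc15a3, Slc25a13 and Slc25a53 among them, and for 2 of the 11 lower ones, Slc30a4 and Slc31a1, both M354 samples did. With quantile normalization 43 were higher and 10 lower. The counts over all tested genes in that fit are not given here, so a shift particular to carriers cannot be read from it. This comparison uses the same mutant samples as the comparisons with WT, so that its values are not separate evidence. The snoRNA and proliferation values above differed between these groups too, so that again snoRNA level and allele cannot be told apart. With the snoRNA level as a covariate 5 carriers were called, a count given here without that over all tested genes. Of 23 carriers named below for this comparison 21 then lost their call, the exceptions being Slc43a3 and Slc25a23, and the difference of Slc5a3 was 0.33 (adjusted p = 0.531).

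Slc43a3 differed most, by 1.44 on the log2 scale (SE 0.14, adjusted p = 2.8e-06, limma), and it kept its call with the snoRNA covariate (0.95, adjusted p = 0.0163). Slc22a15, a carrier of organic ions, read 343 and 358 in M354 and 182 and 160 in M176 Tregs, with WT between at 244 and 246. The log2 difference was 1.04 (SE 0.15, adjusted p = 0.000104). Slc7a10, a carrier of small neutral amino acids, read 215 and 189 in M354, 114 and 108 in M176 and 175 and 120 in WT Tregs, with WT between the mutants and its samples far apart. Its log2 difference was 0.86 (SE 0.16, adjusted p = 0.000941). Slc15a3, a peptide and histidine carrier of lysosomes, read 147 and 171 in M354 and 93.3 and 94.6 in M176 Tregs, with WT between at 119 and 130, and differed by 0.76 (adjusted p = 0.000371).

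Mitochondrial carriers were among those higher in M354. Slc25a13, which exchanges aspartate for glutamate, read 144 and 153 in M354 and 86.3 and 95.5 in M176 Tregs and differed by 0.71 (adjusted p = 0.00151, limma). Slc25a53 read 161 and 156 against 102 and 92 and also differed by 0.71 (adjusted p = 0.000669). Slc25a42, which brings coenzyme A into mitochondria, read 414 and 418 against 261 and 265 and differed by 0.66 (adjusted p = 0.00152). In all 3 the WT Treg samples lay between the mutants. Slc7a1, a carrier of arginine and lysine, read 602 and 590 in M354, 330 and 428 in M176 and 479 and 498 in WT Tregs and differed by 0.66 (adjusted p = 0.00164). Slc5a3 differed by 1.0 and Slc9b2 by 0.92 (adjusted p = 0.00157 and 0.000341), and Slc9a7 and Slc20a1 by 0.65 and 0.64 (0.00183 and 0.00235). Slc9b2 was above the median only on WT and M354 Treg arrays, so its difference carries no weight as a result.

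Among the 11 carriers lower in M354 were 5 of family 25, the peroxisomal Slc25a17 included. Slc15a2 was at 188 and 39.9 in M354 and 224 and 234 in M176 Tregs, a log2 difference of -1.40 (adjusted p = 0.0197, limma) that was -0.28 without M354 replicate 2 (adjusted p = 0.385), -2.52 without M354 replicate 1 (adjusted p = 1.23e-05) and -2.08 with the snoRNA covariate (adjusted p = 0.109). Slc30a4, which loads zinc into vesicles, read 97.4 and 98.3 in M354 and 181 and 134 in M176 Tregs and differed by -0.67 (adjusted p = 0.0125). Slc25a5, Slc25a17, Slc25a32, Slc25a23 and Slc25a30 differed by -0.59 to -0.38 (adjusted p 0.00535 to 0.0333). Slc31a1 differed by -0.52 (0.0142), Slc27a4, a fatty acid carrier, by -0.42 (0.019), Slc35d2 by -0.42 (0.0343) and Slc49a4 by -0.38 (0.0376).

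Each of these 11 lost its call when a sample was left out, with adjusted p up to 0.385, and without M176 replicate 1 no carrier was called lower and 17 were called higher. All 11 were lost without M176 replicate 1 (adjusted p 0.0572 to 0.258), and all but Slc15a2 without M354 replicate 1 (0.0801 to 0.175). Without M354 replicate 2, Slc15a2, Slc25a23, Slc35d2, Slc25a30 and Slc49a4 were lost, and without M176 replicate 2, Slc15a2, Slc31a1, Slc25a23, Slc27a4, Slc25a30 and Slc49a4. Slc7a1 was lost without M176 replicate 1 (0.0524), and the other 9 of the 10 largest higher differences kept their call whichever sample was left out. Slc9b2 is among those kept, although its difference carries no weight, as said above. Quantile normalization ended the calls of Slc25a5, Slc25a23, Slc35d2, Slc25a30 and Slc49a4, and cyclic loess those of Slc35d2, Slc25a30 and Slc49a4. Without M354 replicate 1 the count was 19, and without M176 replicate 2 it was 26.

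In transduced cells the alleles were compared with WT Foxp3 on the same background. With M354, 0 carriers were called, where 1.33% of all tested genes were, 0.359% higher and 0.976% lower, and 12 had an unadjusted p under 0.05 (11.4% of all genes). With M176, 0 were called against 0.516% of all genes, 0.0112% higher and 0.505% lower, and 9 had an unadjusted p under 0.05 (5.91%). Between M354 and M176, 0 were called against 0.0785%, 0.0561% higher and 0.0224% lower, and 6 had an unadjusted p under 0.05 (5.19%). The smallest adjusted p were those of Slc25a18 with M354 (log2 change -0.50, adjusted p = 0.0864, limma), Slc25a24 with M176 (-0.47, adjusted p = 0.49) and Slc31a1 between the alleles (0.49, adjusted p = 0.363). Slc25a18 read 94.9 and 117 in WT-transduced and 73.2 and 75.7 in M354-transduced cells. It passed the brightness rule only on arrays of WT groups, the sample at 117 among them, so this difference carries no weight. Slc25a24, which exchanges ATP-magnesium for phosphate across the mitochondrial membrane, read 674 and 562 with WT and 392 and 505 with M176. For the carriers that fell with an allele in Tregs, the log2 changes in transduced cells were, for Slc35d1, -0.29 with M354 and -0.15 with M176 (SE 0.18), for Slc28a2b, 0.02 and 0.25 (SE 0.14), and for Slc5a3, -0.17 and -0.03 (SE 0.20). A p that misses the threshold does not show equal levels. These counts are from a fit with no block. With sample numbers crossed between groups as a block, an alternative chosen after seeing the data, some carriers were called with M354 and between the alleles, as given at the end. Without WT-transduced replicate 1, 2 carriers were called with M354.

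Whether an allele's effect differed between Tregs and transduced cells was tested as the difference of both changes. For M354, 0 carriers had a higher change in Tregs and 2 a lower one, 1.31% of the 153, where 1.08% of all tested genes were called, 0.83% higher and 0.247% lower, and 10 carriers had an unadjusted p under 0.05 (8.1% of all genes). These were Slc28a2b, with a difference of -1.20 (SE 0.20, adjusted p = 0.00366, limma), and Slc35d1, with -1.12 (SE 0.25, adjusted p = 0.0357). Slc28a2b changed by -1.18 in Tregs and 0.02 in transduced cells, and Slc35d1 by -1.41 and -0.29. For M176, 0 were higher and 5 lower, 3.27%, where 5.49% of all tested genes were called, 4.03% higher and 1.47% lower, and 32 carriers had an unadjusted p under 0.05 (21.0% of all genes). They were Slc28a2b (-1.20, SE 0.20, adjusted p = 0.00236), Slc35d1 (-1.11, SE 0.25, adjusted p = 0.0139), Slc9b2 (-0.85, SE 0.22, adjusted p = 0.0314), Slc20a1 (-0.69, SE 0.20, adjusted p = 0.0496) and Slc38a9 (-0.68, SE 0.19, adjusted p = 0.0464).

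Slc20a1 changed by -0.44 with M176 in Tregs and by 0.25 (adjusted p = 0.925, limma) in transduced cells. There it read 1595 and 1381 with WT and 1887 and 1663 with M176. Slc9b2 changed by -0.63 and 0.21. It passed the brightness rule only on WT and M354 Treg arrays, so this difference carries no weight as a result. Slc38a9 changed by -0.69 and -0.02. Its transduced samples read 766 and 616 with WT and 686 and 670 with M176, and overlapped. Only the Slc28a2b differences were kept whichever sample was left out. The M354 difference of Slc35d1 was lost without either M354 or M176 Treg sample, WT Treg replicate 2, M354-transduced replicate 2, either M176-transduced sample or WT-transduced replicate 2 (adjusted p 0.0532 to 0.175). The M176 differences of Slc35d1, Slc9b2, Slc20a1 and Slc38a9 were lost without M176 Treg replicate 1 and, in all but Slc35d1, replicate 2 (0.0735 to 0.165). All 4 were also lost once the snoRNA level entered the fit (0.211 to 0.375). Without M176-transduced replicate 1 they were lost for Slc35d1, Slc20a1 and Slc38a9 (0.0672 to 0.2), and without WT-transduced replicate 2 for Slc9b2, Slc20a1 and Slc38a9 (0.0842 to 0.137). Slc9b2 was also lost without WT Treg replicate 1 or M176-transduced replicate 2 (0.122 and 0.102), and Slc20a1 and Slc38a9 without either WT Treg sample or M176-transduced replicate 2 (0.0532 to 0.14). Leaving out either M354 Treg sample ended the call of Slc20a1 (0.054), and leaving out either M354-transduced sample that of Slc38a9 (0.0573).

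The window before Slc20a1, a phosphate carrier, is shown as an example with both E-box and metal response matches. The window before Slc49a4 held both kinds too, so the combination is not particular to Slc20a1. The Slc20a1 window covers chr2:129198523-129198772, plus strand, GRCm38.p6, from RefSeq, with matches in capitals. An E-box and the metal response match adjoin near its end.

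Slc20a1 promoter: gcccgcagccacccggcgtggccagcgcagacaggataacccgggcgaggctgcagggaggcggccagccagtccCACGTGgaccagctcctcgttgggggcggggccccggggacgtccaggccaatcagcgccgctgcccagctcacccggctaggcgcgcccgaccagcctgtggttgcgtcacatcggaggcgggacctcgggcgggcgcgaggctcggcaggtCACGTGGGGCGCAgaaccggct

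The last comparison set WT Tregs from the spleen against conventional T cells given WT Foxp3 in culture. The groups differ in cell type, in culture, in transduction and in sorting marker, which cannot be told apart here. In WT Tregs 19 carriers were higher and 38 lower, 37.3% of the 153, where 30.2% of all tested genes were called, 10.9% higher and 19.4% lower. An unadjusted p under 0.05 was found for 74 carriers and for 41.6% of all genes. The arrays of all 57 called carriers did not overlap between the groups, which is no separate support because the call reads the same arrays. Over all tested genes, called or not, 64.3% had arrays that did not overlap. The median log2 difference was -0.02 over the carriers and -0.08 over all tested genes. Among the 121 genes above the median on every array 13 were higher and 33 lower, and among the other 32 genes 6 and 5. For 5 of the 19 rises, Slc7a10, Slc9b2 and Slc12a8 among them, both WT-transduced samples lay below their array medians, and for 3 of the 38 falls, Slc31a1 among them, both WT Treg samples did. Slc7a10, Slc9b2 and Slc12a8 passed the brightness rule on Treg arrays alone. Their rises carry no weight as results, here or where their calls are counted as kept below. The split depended on the scaling: quantile normalization gave 28 higher and 25 lower, and cyclic loess 19 and 30. The split over all tested genes in those fits is not given here, so a shift particular to carriers cannot be read from them. The proliferation, CD8+ T and NK cell and B cell marker sums given above also differed between these groups.

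Metal carriers held the largest falls, with 8 of 20 lower and 1 higher in WT Tregs. Slc30a4 read 96.9 and 133 in WT Tregs and 416 and 338 in WT-transduced cells. All 6 Treg samples, at 96.9 to 181, lay below all 6 transduced samples, at 288 to 464. The log2 difference was -1.72 (SE 0.19, adjusted p = 2.22e-06, limma). Slc39a6, a zinc importer, read 185 and 154 in WT Tregs and 473 and 449 in WT-transduced cells, again with all 6 Treg samples below all transduced ones. It differed by -1.45 (SE 0.14, adjusted p = 6.3e-07). Slc31a1, the copper carrier, read 89.6 and 99.1 against 182 and 163 (-0.87, adjusted p = 0.000286), and Slc30a9 read 335 and 398 against 646 and 529 (-0.68, adjusted p = 0.00254). Slc30a7, a zinc carrier of the Golgi apparatus, read 923 and 1011 against 1012 and 986 and was not called.

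The window before Slc30a4 is shown because this gene had the largest fall of any carrier in WT Tregs against WT-transduced cells and 4 matches to the metal response core, in capitals. It is chr2:122702664-122702913, minus strand, GRCm38.p6, from RefSeq.

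Slc30a4 promoter: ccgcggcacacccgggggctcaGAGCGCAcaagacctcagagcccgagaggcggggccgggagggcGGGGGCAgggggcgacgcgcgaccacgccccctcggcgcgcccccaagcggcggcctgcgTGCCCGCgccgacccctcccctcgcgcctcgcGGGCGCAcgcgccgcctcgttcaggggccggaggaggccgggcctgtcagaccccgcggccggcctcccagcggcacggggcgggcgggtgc

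Of 32 mitochondrial carriers 12 were lower in WT Tregs and 0 higher, with a class median of -0.23. Slc25a24 read 289 and 363 in WT Tregs and 674 and 562 in WT-transduced cells and differed by -0.93 on the log2 scale (SE 0.16, adjusted p = 0.000292, limma). Both carriers of monocarboxylates were lower. Slc16a6 read 170 and 177 against 371 and 282 (-0.90, adjusted p = 0.000284), and Slc16a1, which carries lactate and pyruvate, read 209 and 222 against 315 and 276 (-0.45, adjusted p = 0.0172). Slc10a7, of the bile acid carrier family, read 330 and 332 against 490 and 447 and differed by -0.50 (adjusted p = 0.0122).

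Of carriers of nucleosides and nucleotide sugars, 4 were higher and 5 lower. Slc35d1 was higher by 1.68 (SE 0.18, adjusted p = 1.39e-06, limma) and Slc28a2b lower by 1.28 on the log2 scale, a difference of -1.28 (SE 0.14, adjusted p = 2.19e-06). Slc35a3, which carries UDP-N-acetylglucosamine, read 180 and 286 in WT Tregs and 423 and 317 in WT-transduced cells and differed by -0.69 (adjusted p = 0.0121). Slc35a4, of the same family, read 1186 and 1137 against 1098 and 1099 and was not called.

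Carriers of inorganic ions leaned the other way, with 5 of 20 higher, 2 lower and a class median of 0.23. Slc9a7 read 411 and 478 in WT Tregs and 164 and 134 in WT-transduced cells. All 6 Treg samples, at 322 to 550, lay above all 6 transduced samples, at 134 to 164. The log2 difference was 1.58 (SE 0.14, adjusted p = 1.58e-07, limma), and Slc9b2 differed by 1.03 (adjusted p = 8.03e-05). Slc26a2 read 668 and 775 against 430 and 361 (0.87, adjusted p = 0.000133), and Slc12a8 read 122 and 114 against 69 and 75.6 (0.71, adjusted p = 0.00036). As said above, the rises of Slc9b2 and Slc12a8 carry no weight. Slc20a1 was lower, at 828 and 925 against 1595 and 1381 (-0.76, adjusted p = 0.000555), and all 6 Treg samples lay below all transduced ones.

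Sugar carriers split evenly, with 3 higher and 3 lower of 12. Slc5a3 read 377 and 395 in WT Tregs and 198 and 187 in WT-transduced cells and differed by 1.0 (SE 0.20, adjusted p = 0.00134, limma). Slc50a1, a glucose carrier, read 2655 and 2584 against 1778 and 1702, with every Treg sample above every transduced one, and differed by 0.59 (adjusted p = 0.00189). Slc37a3 read 427 and 492 against 787 and 666 (-0.66, adjusted p = 0.00854). Of the 20 amino acid carriers 2 were higher and 2 lower. Slc7a10 read 175 and 120 against 70.9 and 76.3 (0.98, adjusted p = 0.000256), a rise that carries no weight, as said above. Slc3a2 read 2033 and 2065 against 2461 and 2638 and was not called.

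Slc23a2, the ascorbate carrier, read 726 and 641 in WT Tregs and 450 and 391 in WT-transduced cells (0.70, adjusted p = 0.00177, limma). Slc33a1, which carries acetyl-coenzyme A into the endoplasmic reticulum, read 97.3 and 117 against 188 and 140 (-0.60, adjusted p = 0.0108). Slc44a2, of the choline carrier family, read 2120 and 1966 against 1945 and 2032, overlapped and was not called. Slc22a13, an organic anion carrier with the close copy Slc22a13b, read 207 and 188 against 129 and 128 (0.61, adjusted p = 0.00264). Slc17a5 read 487 and 580 against 939 and 789 (-0.69, adjusted p = 0.00354), and Slc48a1, a heme carrier, 802 and 830 against 1172 and 1161 (-0.52, adjusted p = 0.0158). Of the 3 peptide carriers none was called, and Slc15a4, a lysosomal histidine and peptide carrier, read 218 and 238 against 266 and 274.

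Of the 10 largest rises and the 10 largest falls, 18 kept their call whichever sample was left out. Slc17a5 lost it without WT Treg replicate 1 (adjusted p = 0.0521) and Slc35a3 without WT Treg or WT-transduced replicate 1 (0.229 and 0.137). Slc10a7, Slc16a1, Slc33a1, Slc37a3 and Slc48a1 also lost theirs without either of those (0.0641 to 0.152). The count of carriers called was 32 without WT Treg replicate 1, 30 without WT-transduced replicate 1 and 43 without the WT Treg sample with B cell transcripts.

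**Figure D4:**
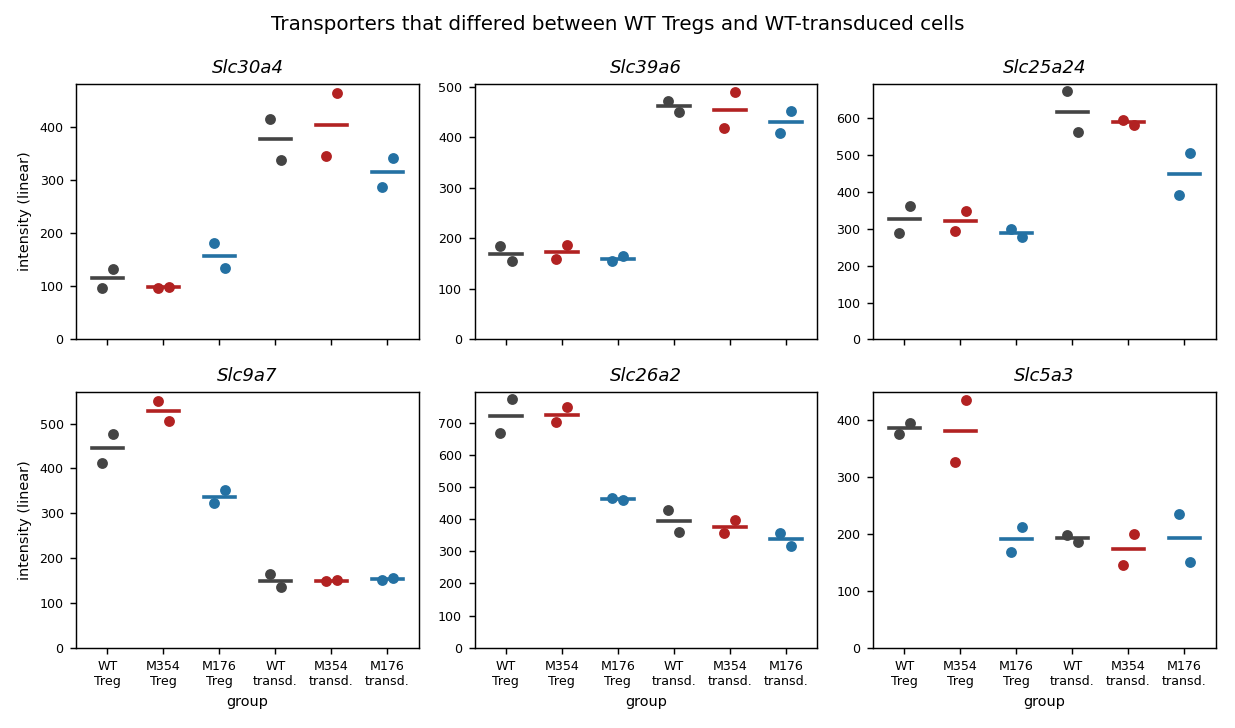
Intensity (linear scale, axis from 0) of 6 carriers by group, with 1 point per array and bars at the arithmetic mean of 2 arrays. All Treg samples lay below all transduced samples for Slc30a4, Slc39a6 and Slc25a24 and above them for Slc9a7 and Slc26a2, while M176 Tregs overlapped the transduced cells for Slc5a3.

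**Figure D5:**
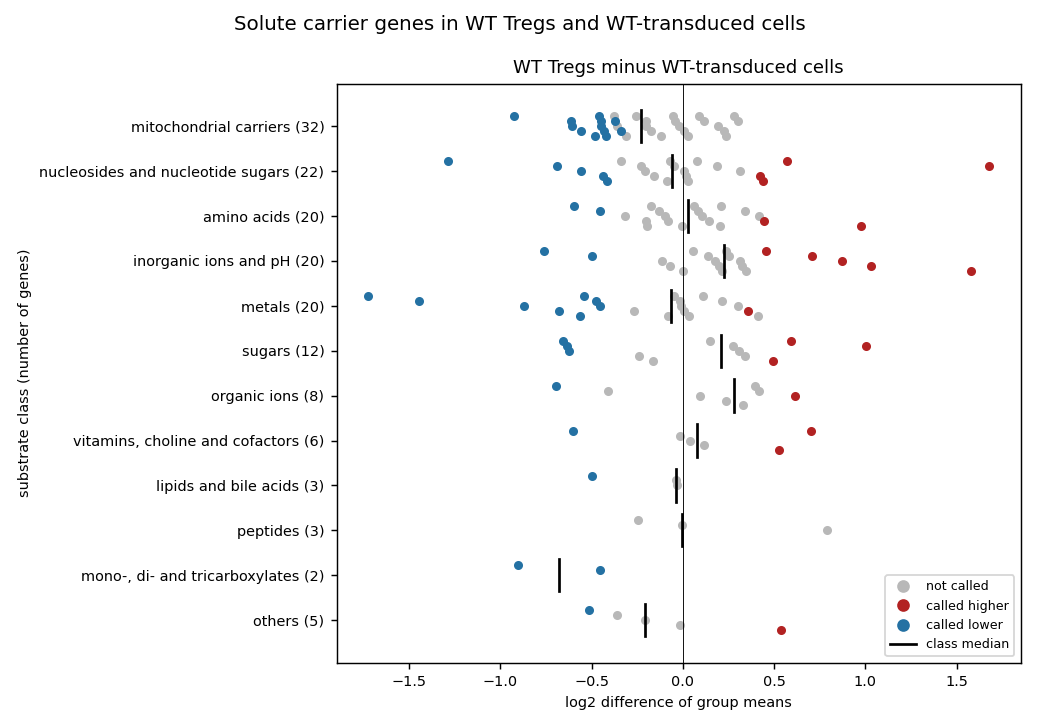
Log2 difference of group means, WT Tregs minus WT-transduced cells, for 153 carriers (points) by substrate class, with red and blue points called higher and lower at an adjusted p under 0.05 and black lines at class medians. Of 32 mitochondrial carriers 12 were called lower and 0 higher, and the metal carriers Slc30a4 and Slc39a6 lay farthest to the left.

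Across all 9 comparisons 88 of the 153 carriers were called at least once and 65 never. That is 57.5%, against 4646 (52.1%) of all 8918 tested genes. The range between the highest and lowest group mean had a median of 0.56 on the log2 scale, from 0.08 for Slc35b2 to 2.70 for Slc28a2b. The steadiest of the carriers never called were Slc35b2, which supplies the sulfate donor PAPS to the Golgi apparatus (0.08), Slc25a12, an aspartate and glutamate carrier (0.11), Slc4a2, a chloride and bicarbonate exchanger (0.13), and Slc35a1 and Slc35a2, which carry CMP-sialic acid and UDP-galactose (0.17 each). By class, at least 1 call fell on 20 of 32 mitochondrial carriers, 12 of 22 of nucleosides and nucleotide sugars, 11 of 20 of amino acids, 10 of 20 of inorganic ions, 10 of 20 of metals and 6 of 12 of sugars. The counts were 6 of 8 for organic ions, 4 of 6 for vitamins, choline and cofactors, 2 of 3 each for peptides and for lipids and bile acids, 2 of 2 for carboxylates and 3 of 5 for other families.

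Genes that work beside the carriers were read from lists drawn up with earlier results of these data known. They were partners that help carriers reach the membrane (3 tested), ABC transporters (14), P-type ATPases (19), the amino acid response (16) and nutrient sensing by mTORC1 (24). In M354 against WT Tregs, 0 partners, 1 ABC transporter, 1 ATPase, 0 amino acid response genes and 1 mTORC1 gene were called, all lower, where 0.919% of all tested genes were lower. Abca1, which exports cholesterol, read 301 and 346 in WT, 206 and 219 in M354 and 161 and 184 in M176 Tregs, against 145 to 191 in transduced cells. WT Tregs were highest without overlap, and it fell by a log2 change of -0.61 with M354 (adjusted p = 0.0299, limma) and -0.91 with M176 (adjusted p = 0.00021). Atp11b changed by -0.55 with M354 (adjusted p = 0.0439, limma) and Castor2, of the mTORC1 list, by -0.68 (adjusted p = 0.03). The M354 calls of these genes and of Abca1 were each lost without some M354 or WT Treg sample.

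In M176 against WT Tregs, partners had 1 gene higher and 1 lower, ABC transporters 1 and 3, ATPases 0 and 4, the amino acid response 4 and 1 and mTORC1 sensing 6 and 3, where 13.4% of all tested genes were higher and 11.3% lower. Emb, a partner of monocarboxylate carriers, read 674 and 808 in WT and 1271 and 1170 in M176 Tregs (0.73, adjusted p = 0.00184, limma), and Cd44 661 and 784 against 445 and 444 (-0.70, adjusted p = 0.00178). Atf4, the transcription factor of the amino acid response, read 213 and 188 in WT and 296 and 274 in M176 Tregs (0.51, adjusted p = 0.00728). Rheb, Lamtor1 and Rraga, which recruit or activate mTORC1 at the lysosome, rose by 0.72, 0.65 and 0.62 (adjusted p 0.00419 to 0.00822). These 4 calls were lost without M176 replicate 1 and, for Rheb and Rraga, WT replicate 1 or, for Atf4, WT replicate 2 (0.0526 to 0.0976), while those of Emb, Cd44 and Abca1 were kept. The median log2 change was 0.17 over the mTORC1 list and 0.22 over the amino acid response list, against -0.04 over all tested genes. Sesn2, the 1 amino acid response gene called lower, went opposite to Atf4 (-0.43, adjusted p = 0.0363, limma). Its call was lost without any single M176 or WT Treg sample.

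Between M354 and M176 Tregs, 1 partner was higher in M354 and 0 lower, 2 and 0 ABC transporters, 3 and 1 ATPases, 3 and 1 amino acid response genes and 0 and 7 mTORC1 genes, where 12.7% of all tested genes were higher and 18.1% lower. Asns, asparagine synthetase, read 192 and 298 in M354 and 117 and 85.6 in M176 Tregs (1.25, adjusted p = 0.000481, limma). Psat1 and Sesn2 of that list were also higher in M354, by 0.44 and 0.41 (adjusted p = 0.0259 and 0.0385). Atf4 went the other way (-0.52, adjusted p = 0.00524). The calls of Psat1, Sesn2 and Atf4 were lost without M176 replicate 1. In the comparisons among transduced cells 0 genes of any of these lists were called. For the M176 effect in Tregs against that in transduced cells, Abca1 differed by -1.09 (adjusted p = 0.00411) and Eif4ebp1, a target of mTORC1, by 0.77 (adjusted p = 0.0216), the latter lost without either M176 Treg sample, WT Treg replicate 2, M176-transduced replicate 1 or WT-transduced replicate 1 (0.0565 to 0.0959).

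In WT Tregs against WT-transduced cells, partners had 0 higher and 2 lower, ABC transporters 2 and 3, ATPases 1 and 3, the amino acid response 0 and 8 of 16 and mTORC1 sensing 0 and 5 of 24, where 10.9% of all tested genes were higher and 19.4% lower. The mTORC1 count is near that background. Emb read 674 and 808 in WT Tregs and 2559 and 2075 in WT-transduced cells (-1.64, adjusted p = 2.3e-07, limma). Asns read 151 and 154 against 420 and 291 (-1.20, adjusted p = 0.000598), and Wars, a tRNA synthetase, 496 and 458 against 1076 and 1043 (-1.15, adjusted p = 4.03e-06). Atp8a2, a lipid flippase, read 83.6 and 72.1 against 296 and 271 (-1.87, adjusted p = 1.86e-07), and Abca1 was higher, by 1.03 (adjusted p = 2.44e-05). The median log2 difference was -0.38 over the amino acid response list, against -0.08 over all tested genes.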

How the data were processed

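RNA of 12 mouse T cell samples was measured on Affymetrix ST1.0 arrays, grouped by their labels. The deposited table holds the intensity of each probe set on each array, not as a logarithm. Per the submitters' processing notes the authors used Affymetrix Power Tools and RMA, a method that corrects background, normalizes between arrays and summarises probes. The array's genome build is not given in the sources used here. Array medians were 101.5 to 117.4. No depth is defined for arrays, and their number, 2 per group, limits the precision.

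Of 20716 probe sets, 17703 named 1 gene, 1246 several and 1767 none in the platform annotation. Where a gene had more than 1 probe set, the one with the highest mean was kept, which concerned 8 of the 153 carriers, and 3 probe sets naming a carrier among several genes were left out. All 153 matched the RefSeq gene table by Entrez number, with 0 changed symbols. Genes above percentile 50 of their array on at least 2 arrays were tested, 8918 in all. Log2 intensities were fitted with limma 3.58.1 in R 4.3.3 (1 mean per group, all 12 arrays, 6 residual degrees of freedom, prior worth 10.9), with Benjamini-Hochberg adjustment over all tested genes in each of 9 comparisons and calls at 0.05. The script was tested on simulated data. The design assumed no block, since the labels do not say that the numbers pair samples. Deviations of same-numbered samples of different groups correlated between -0.551 and 0.25. The value of -0.551, between M354- and WT-transduced cells, means that oppositely numbered samples shared deviations there, which the main fit leaves in the spread.

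The members and lists were chosen with earlier results of these data known. Named carriers are, per comparison, up to 10 called rises and 10 called falls without overlap between arrays, the brightest and the most variable member of each class, the 3 genes on each side of the brightness threshold, and up to 4 called members per pathway list. Slc28a2, Slc22a13b, Slc4a1ap and Slc7a6os were named for their sequence or name, and the steadiest carriers after their values were seen. Promoter windows came from RefSeq (GRCm38.p6) and are shown only where they end at the annotated edge of the gene. Alternatives were quantile and cyclic loess normalization, other filters, the mean of all probe sets, an intensity trend, fewer groups in the fit, a replicate block, the snoRNA level as a covariate and each array left out.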

Additional observations from a re-analysis of the deposited data

Results flagged for a closer look

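For 7 results the effect of an allele in Tregs differed from its effect in transduced cells, by limma's test of the difference between both log2 changes. With M354 these were Slc28a2b, at -1.20, and Slc35d1, at -1.12. With M176 they were Slc28a2b at -1.20, Slc35d1 at -1.11, Slc9b2 at -0.85, Slc20a1 at -0.69 and Slc38a9 at -0.68. The difference of Slc9b2 carries no weight, since this gene passed the brightness rule only on WT and M354 Treg arrays. Both alleles were compared with the same WT samples within each system, so the values of Slc28a2b and Slc35d1 for M354 and for M176 are not independent of each other. No group had enough samples for a search for single samples that stand apart.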

How the results depend on the processing

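The number of carriers called depended most on which samples and which covariate entered the fit. The cause was not tested. With genes tested only above percentile 75, fewer carriers entered the fit. There 21 carriers were called in M176 against WT Tregs, 20 in M354 against M176 Tregs and 34 in WT Tregs against WT-transduced cells. With the snoRNA level as a covariate the counts were 2 for M176 against WT Tregs, 5 for M354 against M176 Tregs and 1 for the M176 effect difference. That last count was 10 with quantile normalization, 3 without a filter and 3 with the replicate block. The M354 effect difference gave 1 with only the groups compared and 1 with the replicate block, and M354 against WT in transduced cells gave 1 with cyclic loess. With the replicate block the counts were 5, 28 and 37 in the 3 Treg comparisons, 0 among transduced cells and 52 between the WT groups. With numbers crossed between groups and only the groups compared, an alternative chosen after seeing the data, 7 carriers (721 genes) were called in M354 against WT transduced cells, 1 (200 genes) in M354 against M176 transduced cells and 77 (3841 genes) between the WT groups.

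With 1 array left out, counts ranged over 4 to 7 in M354 against WT Tregs, 11 to 37 in M176 against WT Tregs, 17 to 42 in M354 against M176 Tregs, 0 to 2 in M354 against WT transduced cells, 1 to 2 and 1 to 5 in the M354 and M176 effect differences and 30 to 59 between the WT groups. A group left with 1 array is assumed to vary like the others. The share of all tested genes called is not given for the fits with 1 array left out. M354 against WT Tregs stayed within 1.5 times its count of 6 under every alternative run, and 0 named changes reversed. With 2 arrays per group, small changes and genes near the array median are not resolved.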
